A study of Mus musculus with 2 samples.

Results

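In the ventral prostate of wild-type mice, secreted prostate proteins such as Spink1 and Sbpl and many ribosomal proteins were among the brightest transcripts with a gene symbol. Of the 5 brightest probes, 3 carried no symbol here. The tissue came from FVB/N mice (also spelled FBV/N in the labels) at 6 months of age, and the wild-type sample was a pool of RNA from 6 animals. The other pool of the study came from 6 mice of the same age that carried ARR2PB-miR32, a microRNA transgene under a composite promoter built from that of probasin, which acts in androgen-responsive prostate epithelium. Each pool was labelled once in each dye and hybridised to 2 two-colour Agilent arrays, with the wild type in Cy5 on array 1 and in Cy3 on array 2. The arrays therefore repeat 1 wild-type pool, with 1 replicate per genotype: the values carry technical error alone and no test was made. Within the wild-type signals, array and dye changed together and cannot be told apart. The labels give the tissue as ventral prostate, although their text on the animals names the dorsolateral prostate as an alternative.

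The wild-type signals of 41174 probes were ranked on each array, and the 2 ranks of a probe were averaged. The 200 probes with the best average rank, 0.486% of all probes, are described here, and a probe's position in that order is called its place, with place 1 the brightest. Of the 200, 143 carried a gene symbol, for 129 genes, and 57 did not. These 129 genes were 0.681% of the 18952 genes with a symbol. The 200 were selected on these wild-type signals, so their height is a description and not a finding. Probes differ in how well they hybridise, so a place orders probes by brightness and not genes by number of transcripts. A gene took the place of its brightest probe, and its percentile counts the genes it exceeded, with 100 for the brightest. Of all genes with a symbol, 56.3% were well above background on both arrays, and each count of such genes below stands against that share.

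The mouse prostate has several paired lobes, of which the ventral lobe is made of ducts lined by tall secretory luminal cells. These cells release protease inhibitors, small binding proteins and antimicrobial peptides into the seminal fluid, and their secretion depends on androgen. Around the ducts lie basal epithelial cells, a thin layer of smooth muscle, fibroblasts, vessels and scattered leukocytes.

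The 3 genes named as markers of this tissue all lay among the 200. The markers and lists were chosen with earlier results of these data known, so these places do not test what the tissue is. Spink1, a Kazal-type inhibitor of trypsin-like proteases that binds to sperm, was at place 2, with a signal of 1528493 on array 1 and 1001078 on array 2. Sbp, spermine binding protein, was at place 7 with 546629 and 349422. Pbsn, probasin, a secreted lipocalin and the source of the promoter most used to target the prostate, was at place 79 with 117090 and 109565. Sbpl, a gene named for its likeness to Sbp, was at place 3 with 1196954 and 1050555, and it was the brightest probe of all on array 2.

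The sequences around the annotated starts of Pbsn and Sbpl are shown because the Pbsn promoter is the origin of the transgene's promoter, and because Sbpl was the brightest named gene besides Spink1. They come from the RefSeq promoter table (build GRCm38.p6), run from 250 bases before to 50 bases after the start, and read 5′ to 3′ on the gene's strand. The Pbsn entry lies at chrX:77853451-77853750 and the Sbpl entry at chr17:23955224-23955523, both on the minus strand. Capitals mark TATAAA, the core of a TATA box, and AGAACA, a half-site bound by steroid receptors.
Pbsn: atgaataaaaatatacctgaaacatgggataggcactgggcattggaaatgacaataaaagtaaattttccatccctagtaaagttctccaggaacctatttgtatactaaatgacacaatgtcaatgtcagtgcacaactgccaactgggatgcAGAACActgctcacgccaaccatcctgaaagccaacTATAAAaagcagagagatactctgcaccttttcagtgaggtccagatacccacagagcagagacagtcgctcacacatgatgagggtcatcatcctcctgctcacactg
Sbpl: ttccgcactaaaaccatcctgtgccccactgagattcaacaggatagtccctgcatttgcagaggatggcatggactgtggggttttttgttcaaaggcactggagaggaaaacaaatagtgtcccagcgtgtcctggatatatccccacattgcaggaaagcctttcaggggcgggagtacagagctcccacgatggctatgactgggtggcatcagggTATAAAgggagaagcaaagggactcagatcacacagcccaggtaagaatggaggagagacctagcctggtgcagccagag

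In the Pbsn entry, TATAAA began 59 bases and AGAACA 95 bases before the annotated start. In the Sbpl entry, TATAAA began 30 bases before the start, and AGAACA was not found on either strand in this window. Sbp has 3 annotated starts, and AGAACA lay before one of them, at 64 bases, on the opposite strand. TATAAA on the gene's strand occurred in 8.88% and AGAACA on either strand in 19% of the first entries of 27025 genes, and 2.28% held both. TATAAA starting 40 to 20 bases before the start, as in Sbpl but not in Pbsn, occurred in 2.22%. A match says that these letters occur in the window and does not mark a used site. No share over the brightest genes is given, because 99 of the 129 genes (76.7%) had an entry, less than the 80% required.

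**Figure D1:**
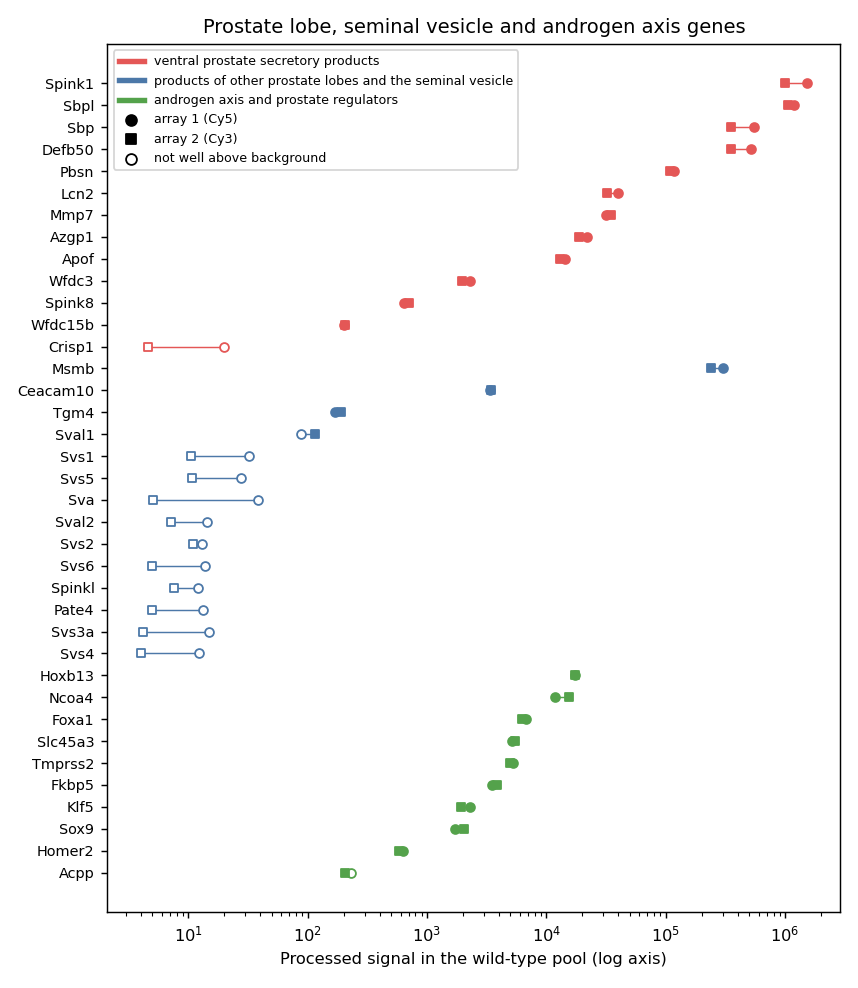
Processed signal in the wild-type pool (log axis) for measured genes of 3 lists, with a circle for array 1 and a square for array 2, joined by a line. Open symbols were not well above background. Spink1, Sbpl, Sbp, Defb50, Pbsn and Msmb stand at the right, and the seminal vesicle genes Svs1 to Svs6 stand at the left with open symbols.

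Secretory products of the ventral lobe were the highest of the 3 prostate lists. Of 13 genes in this list, 12 were well above background on both arrays, against 56.3% of all genes, and 5 were among the 200. Their median percentile was 98.8, against 50 for all genes. Besides the genes above, Defb50, a beta-defensin of the antimicrobial peptide family, was at place 8 with 517194 and 351159. Below the 200 came Lcn2, a lipocalin that binds bacterial iron carriers, at place 325, Mmp7, a metalloprotease of secretory epithelia, at place 346, Azgp1, zinc-alpha-2-glycoprotein, at place 541, and Apof, an apolipoprotein, at place 759. The list also reached low: Wfdc15b was at place 14725 with 200.6 and 204.3. Crisp1, a sperm-coating protein best known from the epididymis, was at place 34676 and was not well above background.

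Products of other lobes and of the seminal vesicle were mostly dim. Of the 14 measured genes, 3 were well above background on both arrays and the median percentile was 15.5. Ranked among detected genes alone, those 3 had a median of 81.5. Svs1, Svs2, Svs3a, Svs4, Svs5 and Svs6, the seminal vesicle secretory proteins, had signals between 12.4 and 32.5 on array 1 and between 3.98 and 11 on array 2, none well above background. Tgm4, a transglutaminase that is a mark of the dorsal and anterior lobes, gave 169.4 and 189.1 at place 15399. Ceacam10 gave 3357 and 3447 at place 2647. The exception was Msmb, beta-microseminoprotein, at place 18 with 301171 and 237725. It was the 1 gene of this list among the 200, and its ranks on the arrays were 19 and 20.

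Regulators of the prostate were detected at lower places than its products. Of 12 genes, 11 were well above background on both arrays, none was in the 200, and the median percentile was 88.7. Hoxb13, the homeobox factor of the prostate, was at place 614 with 17476 and 17414. Foxa1, a factor that opens chromatin, was at place 1515. Fkbp5, an androgen-induced chaperone, was at place 2468.

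Other secreted and defence proteins filled several of the highest places. Spink5, a Kazal-type inhibitor with many inhibitory domains, was at place 36 with 187355 and 180712. The acute-phase serum amyloids among the 200 were 3 in number, Saa3 at place 61 with 142676 and 132830, Saa1 at place 67 with 134926 and 125430, and Saa2 at place 147 with 69207 and 65781. Defb1, an epithelial beta-defensin, was there with both of its probes, at places 145 and 148. Each of these genes lay within a narrow range between the arrays. Their relatives were mostly dimmer: of 28 beta-defensin genes on the array 9 were well above background, with a median percentile of 31.8, and of 9 Kazal-type inhibitor genes 3 were. Clu, clusterin, a secreted chaperone, was at place 126 with 89372 and 67812. Apoe, apolipoprotein E, was at place 197. Grn, progranulin, was at place 40 with 240959 and 135868. These groups, and the serum amyloids, were put together by gene symbol after the values were seen.

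The antigen presentation genes of class I, which nearly all cells carry, were bright as well. B2m, beta-2-microglobulin, the light chain of class I molecules, was among the 200 with both of its probes, at place 17 with 310613 and 255437 and at place 44 with 166589 and 170225. H2-K1, a heavy chain, was at place 76 with 119311 and 120734, and H2-Q2 was at place 183. Class I heavy chains are near copies of each other, so a probe may read more than 1 of them. Of 17 class I genes measured, 13 were well above background and 9 lay among the brightest 10% of genes.

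**Figure D2:**
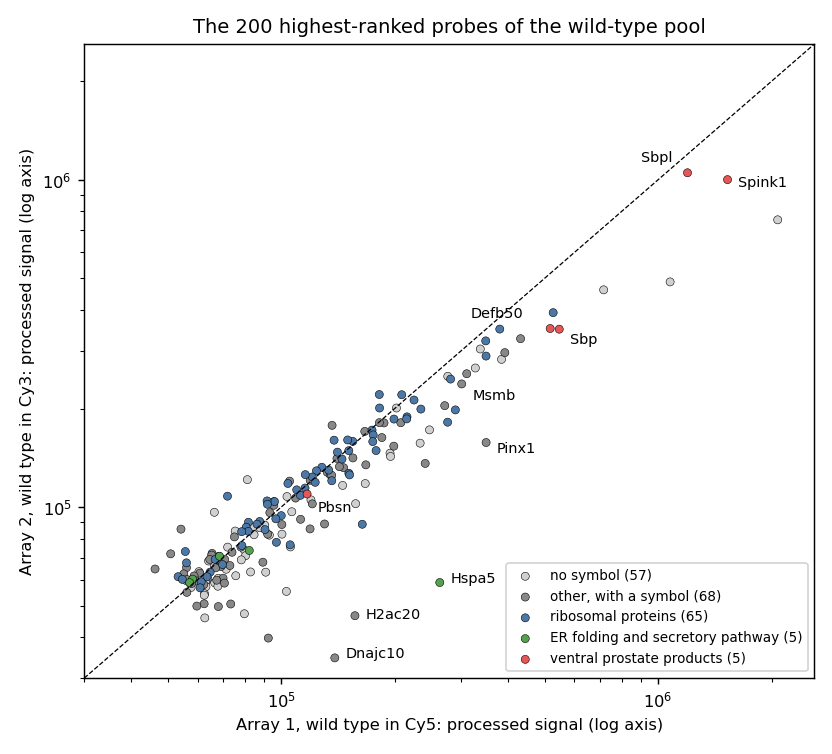
Processed wild-type signal of the 200 probes on array 1 in Cy5 (horizontal) and array 2 in Cy3 (vertical), both on log axes, coloured by gene group, with equal signals on the dashed line. Among the 65 ribosomal protein probes the widest gap between arrays is 1.85-fold, for Rps14, Spink1 and Sbpl lie at the top right, and Hspa5, H2ac20 and Dnajc10 lie far below the line.

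Ribosomal proteins, which build the machine of protein synthesis, formed the largest group. They gave 65 of the 200 probes (32.5%), against 0.299% of all probes, and 21 of the first 50. Of the 85 ribosomal protein genes measured, 56 were among the 200 and 79 lay among the brightest 10% of genes. Rplp1, part of the stalk of the large subunit, was at place 6 with 526712 and 392607. Rplp0, the base of that stalk, was at place 10 with 380062 and 349724. Rps23 was at place 12 with 348847 and 321859, and Rps12 at place 15 with 349487 and 289244. Of the other highest named probes, Rpl41, Rps28, Rpl37a, Rps18, Rplp2 and Fau were at places 20, 21, 23, 24, 25 and 26. Ribosomal proteins have many processed pseudogenes of nearly the same sequence, so a probe may read more than its named gene. The 6 genes outside the brightest 10% included tissue-restricted relatives: Rpl3l, the striated muscle form of Rpl3, gave 13.8 and 10.5, and Rpl39l, a relative of Rpl39 known from the testis, gave 19.9 and 4.61. Rpl14 at place 7177 and Rpl31 at place 3882 were also outside it.

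Translation factors were uniformly bright. All 14 measured genes lay among the brightest 10% of genes, with a median percentile of 98.6, and 3 were among the 200. Eef1a1, which brings aminoacyl-tRNA to the ribosome, was at place 41 with 198898 and 153443. Pabpc1, the poly(A) binding protein, was at place 173 with 50880 and 71927, and Tpt1 was at place 180. Rack1, a scaffold protein on the small subunit, was at place 35. Lars2, the leucyl-tRNA synthetase of mitochondria and not in this list, was at place 9 with 431600 and 326859. Whether its probe reads this transcript alone was not tested.

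The machinery that folds and moves secreted proteins was bright throughout. Of 34 genes measured, all were well above background, 32 lay among the brightest 10% of genes, and the median percentile was 98.2. The 5 among the 200 were Hspa5, the Hsp70 chaperone of the endoplasmic reticulum, at place 102, Sec61g and Sec61b, subunits of the translocation channel, at places 122 and 190, Pdia6, a disulfide isomerase, at place 137, and Hsp90b1, the Hsp90 chaperone of the same compartment, at place 175. Sec61g gave 82253 and 73643, and Pdia6 gave 68574 and 70716. Tmed3, a p24 receptor for cargo leaving the endoplasmic reticulum, was at place 54 with 154923 and 141271. Agr2, a disulfide isomerase of mucosal and prostate epithelium, was at place 198 with 46241 and 64646.

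Respiratory chain subunits encoded in the nucleus followed. Of 86 genes, 80 were well above background and 67 lay among the brightest 10%, with a median percentile of 97.2, and 4 were among the 200. These were Cox6a1 of cytochrome c oxidase at place 81, Atp5b of ATP synthase at place 138, Ndufa13 of complex I at place 142 and Uqcrh of complex III at place 171. Isoforms known from other tissues were dim: Cox6a2 and Cox8b, the heart and muscle forms, gave 50.2 and 76.5, and 81.8 and 82.5. Cox8c, known from the testis, gave 11.1 and 7.17.

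The 200 also held single genes of metal binding and redox balance, picked by their place. Fth1, the heavy chain of ferritin, was at place 66 with 132433 and 127737. Mt2 and Mt1, metallothioneins that bind zinc and copper, were at places 90 and 159, while Mt3 was at place 7737 and Mt4, not well above background on both arrays, at place 20108. Prdx6, a peroxiredoxin, was at place 51 with 136398 and 177630, and Sod1, the cytosolic superoxide dismutase, was at place 182. Odc1, the first enzyme of polyamine synthesis, lay outside the 200 at place 385 with 29284 and 30965. Of the 16 genes listed for polyamine, citrate and zinc handling, all were well above background, with a median percentile of 90.7. Cbr2, a carbonyl reductase, was at place 11 with 391966 and 296322, and Mat2a, which makes S-adenosylmethionine, was at place 58 with 140555 and 140699.

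**Figure D3:**
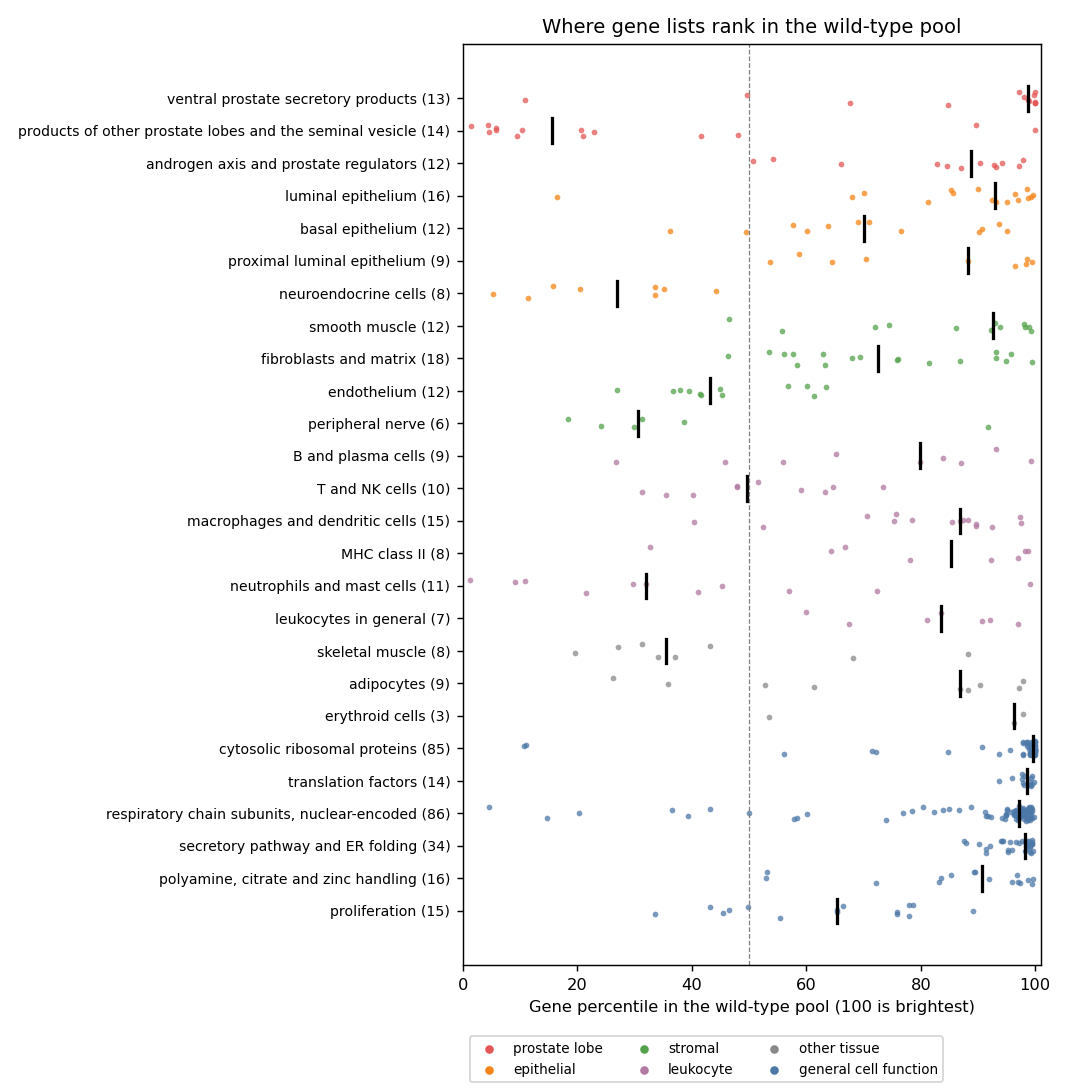
Percentile of each measured gene (point) in the wild-type pool for 26 gene lists, coloured by family, with the list's median as a black bar, the number of genes in brackets and the median of all genes as a dashed line. Ventral prostate products (98.8), ribosomal proteins (99.6) and secretory pathway genes (98.2) have medians at the right edge, and neuroendocrine genes (27) and other lobe and seminal vesicle products (15.5) lie at the left.

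Epithelial genes ranked by compartment, with luminal genes highest. In the bulk tissue, fewer cells of a type and less RNA per cell cannot be told apart. The 16 luminal genes had a median percentile of 92.9, and 15 were well above background, with a median of 87.9 among detected genes alone. Krt18 and Krt8, the keratin pair of simple epithelia, were at place 93 with 95530 and 103815 and at place 345 with 34797 and 32679. Epcam, the epithelial adhesion molecule, was at place 1919, and Cdh1, E-cadherin, at place 3610. Muc1 gave 15.2 and 16.8 and was not well above background. The 12 basal genes had a median of 70, and the 11 detected had 48.4 among detected genes alone, with Krt15 at place 1281 and Krt5 at place 2371, whose signals were 3798 and 3934. Trp63, the basal transcription factor, was at place 8055. The 9 genes known from proximal luminal cells had a median of 88.2, led by Clu, Ly6a at place 436 and Wfdc2 at place 466. All 9 were detected, with a median of 79.1 among detected genes alone. Neuroendocrine genes were the lowest epithelial list, with a median of 27. Calca, the gene of calcitonin and its related peptide, was the 1 of 8 well above background on both arrays, at place 17125, and among detected genes alone it was at percentile 3.59. Chga, chromogranin A, gave 34.5 and 73.4.

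Stromal genes put 1 gene among the 200. Dcn, decorin, a matrix proteoglycan of fibroblasts, was at place 153 with 54178 and 85571. Its rank was 205 on array 1 and 111 on array 2, so array 1 alone would have left it out. Smooth muscle genes had the highest stromal median, 92.6 over 12 genes, all well above background. Among detected genes alone their median was 86.9. Tagln was at place 215 with 44198 and 59166, Myl9 at place 328, Cnn1 at place 488, and Acta2, smooth muscle actin, at place 512 with 23303 and 19549. The 18 fibroblast and matrix genes had a median of 72.6, and the 17 detected had 57 among detected genes alone. Apod was at place 1121 with 15907 and 6222, a wide gap between the arrays, and Col1a1 at place 7962 was far below Col1a2 at place 1764, although both chains form type I collagen. The 12 endothelial genes had a median of 43.2, with 6 well above background (50%, near the 56.3% of all genes). Those 6 had a median of 26.2 among detected genes alone. Plvap led them at place 9777, and Pecam1 was at place 19438 with 74 and 92.4. Of 6 peripheral nerve genes, 1 was well above background, namely Mbp at place 2100.

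Leukocyte genes spread over a wide range. Of 60 measured, 46 were well above background (56.3% of all genes were), and 0 were among the 200, near the background of 0.681%. Their median percentile was 71.5, against 63.1 for 48 stromal, 76.6 for 45 epithelial and 84.6 for 39 prostate lobe genes. The lists held no heavy or light chain genes of immunoglobulins. The 57 probes of the 200 without a symbol were in no list, so the count of 0 covers the listed genes alone. Jchain, the joining chain of secreted IgA and IgM, was the highest of the 60 at place 257 with 46062 and 41547. Ltf, lactotransferrin, an iron-binding protein of neutrophil granules and of glandular secretions, was at place 294 with 35848 and 41677. The list of neutrophil and mast cell genes had a median percentile of 32, with 3 of 11 genes well above background on both arrays and a median of 50.9 for these among detected genes alone. The others of the 3 were S100a9 with 810.3 and 1001 and S100a8 with 292.8 and 385.4. The granule genes Camp, Ngp and Elane were not well above background on either array, and Mpo, with 25.1 and 55.2, was so on array 2 alone. H2-Ab1 and Cd74, of class II antigen presentation, were at places 350 and 508. Ctss, a cathepsin of antigen presenting cells, was at place 682 with 14878 and 15519, and Lyz1 was at place 721. Ptprc, the common leukocyte antigen CD45, was at place 4828 with 1491 and 1775, and Csf1r, the macrophage growth factor receptor, at place 6270. Among B cell genes, Cd79b was at place 1763 and Cd79a at place 16427. The T and NK list had a median percentile of 49.7, and its 7 detected genes had one of 27.2 among detected genes alone. Nkg7 was its highest gene at place 6866, followed by Cd5 at place 9391 and Cd3d at place 9872, and Cd3e gave 242.2 and 131.9.

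Genes of surrounding tissues were measured in the same way. Adipocyte genes had a median percentile of 86.8 over 9 genes, with Cfd at place 605, Fabp4 at place 743 and Cidec at place 2461, and Adipoq gave 2917 and 2992. The 7 detected adipocyte genes had a median of 79 among detected genes alone. Lep and Ucp1, of white and brown fat, were dim, with 57.2 and 59.8 and with 28.9 and 24.6. Hbb-bt and Hba-a1, haemoglobin chains of red cells, were at places 579 and 1010. Skeletal muscle genes had a median of 35.5 and 3 of 8 well above background, led by Acta1 at place 2970. The part that RNA of fat, blood or leukocytes has in the ranks of other genes was not tested. The 15 proliferation genes had a median of 65.4, and the 13 detected had 40.3 among detected genes alone. None was among the brightest 10%. Pcna led them at place 2752, Mcm7 was at place 5455 and Mcm6 at place 5605.

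Several of the brightest probes carry no gene symbol here and are given by the identifiers in the files. Of the 57, 19 had an internal NAP identifier, 14 an Ensembl transcript and 24 another accession or the probe's own name. The brightest of all was a probe for NR_003278, at place 1 with 2076812 and 754453, and a second probe for it was at place 5. AJ428208 was at place 4 with 1076245 and 487430. The 3 probes for ENSMUST00000178282 were at places 13, 37 and 45, the first with 384227 and 282628. The 200 probes together held 44.3% of the summed wild-type signal on array 1 and 40% on array 2.

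The arrays gave nearly the same order. Spearman's rho between them was 0.975 over the 17407 probes well above background on both arrays (42.3% of all probes), and 0.875 over the 200. These correlations are across probes of 1 RNA pool, and probes are not replicates. Of the 200, 193 were among the 200 brightest on array 1 and 191 on array 2. The median ratio of the larger to the smaller signal was 1.11, and 183 probes were within 1.5-fold. No wild-type spot was saturated (0 spots on either array).

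The 7 members over 2-fold apart were all brighter on array 1. They were the first NR_003278 probe, AJ428208, Pinx1, Stra6, Hspa5, H2ac20 and Dnajc10. Hspa5 gave 263388 and 58783 and ranked 25 and 180. H2ac20, a histone H2A gene, gave 156856 and 46539 and ranked 54 and 228. Dnajc10, a partner of Hspa5 in the endoplasmic reticulum, gave 138695 and 34590, ranked 67 and 333, and entered the 200 at place 199 through array 1. Pinx1, a telomerase inhibitor, gave 349649 and 157405. Sbpl also changed rank by a large ratio, from 3 to 1, with signals that differ by 1.14-fold. The transgenic pool had the opposite dye on each array. There the first NR_003278 probe, AJ428208, Stra6 and Hspa5 were brighter on array 2. Pinx1, H2ac20 and Dnajc10 were brighter on array 1 there. Hspa5 gave 20159 on array 1 and 44155 on array 2, and Dnajc10 gave 21030 and 15210. The cause of these gaps was not tested.

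The order was continuous at its lower end. Agr2, Dnajc10 and the probe NAP028279-1 at places 198, 199 and 200 had average ranks of 199.5, 200 and 201.5. Cox4i1 and Gng5 at places 201 and 202 had 202.5 and 205. Cox4i1 gave 49097 and 58924, which overlaps the signals of members just inside.

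Other probes for the same genes did not always share the brightness. Of the 129 genes, 53 had further probes, 70 in all. Of these, 14 were also among the 200, 47 lay within the first 1000 places, and their median place was 390.5. Both probes of Tspan1, a tetraspanin of secretory epithelia, were high, at places 52 and 95. Fbxo2, a ubiquitin ligase subunit that binds sugar-bearing proteins, was at place 22 with 271528 and 204055, while its other probes were at places 11477 and 13484. Pinx1 was at place 27, and its other probe, with 43.7 and 100.8 at place 20670, was not well above background on both arrays. Lrrc58 at place 83 had other probes at places 6280, 15230 and 18864, and Rpl37 at place 108 had one at place 25971. H2aj, a histone gene, at place 128 had one at place 13260. Genes named above also had lower probes. Grn at place 40 had another at place 1263, H2-K1 at place 76 had others at 849 and 1255, and H2-Q2 at place 183 had one at 1590. Pdia6 at place 137 had others at 1506 and 2416, and Atp5b at place 138 had others at 1292 and 3894. Prdx6 at place 51 had others at 312 and 14367. For all these genes the place rests on 1 probe.

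**Figure D4:**
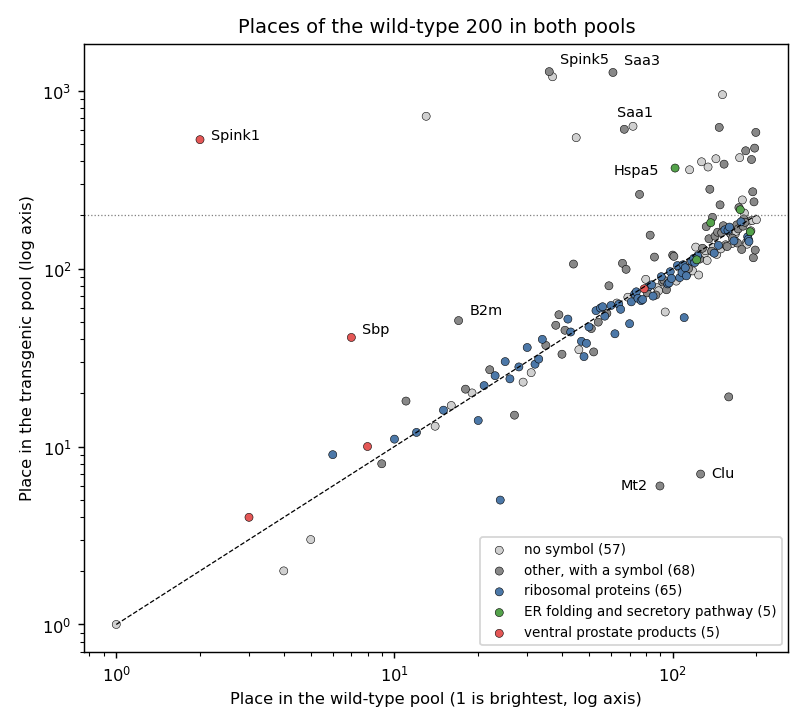
Place of each of the 200 probes in the wild-type pool (horizontal) and in the transgenic pool (vertical), both on log axes, with equal places on the dashed line and place 200 of the transgenic pool on the dotted line. Spink1, Spink5 and Saa3 lie high above the line, Mt2 and Clu lie below it, and all 65 ribosomal protein probes lie below the dotted line.

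Most of the 200 kept a high place in the transgenic pool, ranked in the same way on the same arrays. All 200 were well above background there, and 170 (85%) were among its own 200 highest, which are 0.486% of all probes. Over all probes, Spearman's rho of the average ranks between the pools was 0.977, so a high overlap is not particular to the 200. All 65 ribosomal protein probes were among the 170 shared probes, with 183 as their lowest place. Pbsn was at place 79 in the wild type and 77 in the transgenic pool, Sbpl at 3 and 4, Defb50 at 8 and 10, Msmb at 18 and 21, and Krt18 at 93 and 86. A place near the top can hold while the signal differs: Sbpl gave 485054 on array 1 and 473939 on array 2 in the transgenic pool, lower than its 1196954 and 1050555 in the wild type. With 1 pool per genotype, a change of place has no replicate check.

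Of the other 30 probes, 16 fell beyond place 400. Spink1 went from place 2 to place 530, with transgenic signals of 17982 on array 1 and 20866 on array 2. Spink5 went from place 36 to 1278, with 7774 and 7323, and Saa3 from place 61 to 1264, with 7008 and 8426. Those of ENSMUST00000178282 went from places 13, 37 and 45 to 717, 1196 and 544. Saa1 and Saa2 went to 606 and 621, H2-Q2 to 459 and Apoe to 475. Sbp stayed among the highest, at place 41. In the other direction, Mt2 was at place 6, Clu at place 7 and Mt1 at place 19 in the transgenic pool. Among the 30 probes that were high in the transgenic pool alone, the farthest down in the wild type were both probes of Scgb2b27, a secretoglobin, at places 5274 and 6013, Ramp1, a receptor activity modifying protein, at 1882, and 1 probe of Malat1, a long noncoding RNA of the nucleus, at 362. Nupr1, a stress-response protein, was at 358. The brightest Malat1 probe was high in both pools, at place 114 in the wild type and 100 in the transgenic pool. Further Malat1 probes were at places 212 and 301 in the wild type. In the transgenic pool, the Malat1 probe at 362 gave 57789 on array 1 and 122895 on array 2, a wide gap.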

How the data were processed

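RNA pools of wild-type and ARR2PB-miR32 ventral prostate were measured on 2 dye-swapped arrays, which repeat the same pools. The deposited scanner files hold spot intensities read with Agilent Feature Extraction 11.0.1.1 (grid 014868, build mm9), per the file headers, and the processed intensity was background-subtracted and dye-normalized by the authors' software before deposit.

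For each array the processed intensity of the wild-type channel (red on array 1, green on array 2) was taken for non-control spots. Spots of a probe were combined by their median, probes were ranked, and the 2 ranks were averaged (Python 3.11.15, pandas 2.3.3). Among 100 detected probes printed as 10 spots, the median coefficient of variation was 10.8% on array 1 and 5.84% on array 2. The number of arrays limits the precision, and the spread between mice is not measured. The ranking was tested on simulated data. A gene was well above background where 1 of its probes was so on both arrays. The wild-type channel passed for 17453 probes on array 1 and 28950 on array 2.

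Symbols came from a RefSeq table (GRCm38.p6) matched on unversioned accession: 27816 probes matched and 13358 did not. The named genes were the 20 highest probes with a symbol, 3 tissue markers, the 3 highest genes of each of 26 lists, defining cell type markers, probes on either side of place 200, the 5 members that differed most between arrays and the 5 that fell farthest in the transgenic pool. Other names were chosen after their values were seen. The members and lists were chosen with earlier results of these data known. The authors' deposited table of ratios was not used here. Some genes are left out of the text and of the plot of prostate genes and are not reported here by name; counts and medians of lists include them.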

Additional observations from a re-analysis of the deposited data

How the results depend on the processing

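Each alternative changed 1 choice: a single array, normexp background correction (offset 50, limma 3.58.1) of unprocessed signals, spot means without outliers, quantile normalization, detected probes alone, the 100 or 400 highest probes, or the median rank of a gene's probes. Of the 200 wild-type probes, 182 stayed among the 200 highest with normexp, 193 with array 1 alone and 191 with array 2 alone. The overlap with the transgenic pool's 200 highest ranged from 166 to 173 over the alternatives that keep 200 probes. Ribosomal proteins made up 44% of the 100 and 22% of the 400 highest probes. The prostate lobe median percentile was 83.6 to 83.7 with either array alone, 84.4 with normexp, 88.7 among detected probes and 85.2 with the median rank. For epithelial genes it was 80.7 among detected probes and 80.8 with the median rank. For stromal genes it was 62.6 to 62.7 with 1 array, 63.2 with normexp, 55.8 among detected probes and 62.3 with the median rank. For leukocyte genes the values were 70.6 to 71.1, 74, 65.2 and 72.4. The number of stromal genes among the highest was 0 to 2 with 1 array, 0 with normexp, where Dcn fell to place 277, and 3 among the 400 highest, which also held 3 leukocyte genes. The cause of these moves was not tested, except that the 100 and 400 highest hold another number of probes by construction. The alternatives for protein features were not run, because no protein sequences were used here, nor were those for promoter shares. No paired analysis was possible because all values come from 1 wild-type pool. Spearman's rho between the arrays was 0.935 over all probes and 0.975 over probes well above background. In the wild-type channel, fewer probes were well above background on array 1 in Cy5 than on array 2 in Cy3.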

Other observations

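Gene families sorted by symbol after the values were seen showed how unevenly related genes were represented in the wild-type pool. Of all genes, 56.3% were well above background and the median percentile was 50. Of 24 kallikrein genes, secreted serine proteases that include the best-known human prostate marker, 5 were well above background, none was among the 200 and the median percentile was 35.5. Of 54 serpins 15 were well above background, and of 10 secretoglobins 3 were. Of 12 WAP domain genes, 7 were well above background and the median percentile was 52.3, with Wfdc18 at place 370, Wfdc2 at place 466 and Slpi at place 656 as the highest. Of 16 cystatins, inhibitors of cysteine proteases, 7 were well above background and the median percentile was 25.6, with Cst3 the highest at place 292. C3, the central complement protein, was at place 407 with 28203 and 28754.

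Of 40 histone genes, 34 were well above background and 4 were among the 200: H2aj, H2ac20, H2ac10 and H2ac1. Tetraspanins had a median percentile of 81.3 over 20 genes and were led by Tspan1. Of 11 p24 cargo receptors, 9 were well above background, and Tmed10, Tmed9 and Tmed2 followed Tmed3 at places 267, 418 and 501. Claudins, which form tight junctions, were led by Cldn10 at place 844 and Cldn7 at place 1288, with 9 of 21 genes well above background. All 6 peroxiredoxins were well above background, with a median percentile of 96.1.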
